A study of Mus musculus with 25 samples.

Results

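Genes of the glutathione, peroxidase and antioxidant defence were followed in RNA bound to astrocyte ribosomes of the mouse spinal cord. The 10 members were taken by name: the glutathione peroxidase genes Gpx1, Gpx4 and Gpx8, the peroxiredoxin genes Prdx1 and Prdx6, the glutathione S-transferase genes Gstm1 and Gstm5, the superoxide dismutase genes Sod1 and Sod2, and Nfe2l2. All 10 of 10 were listed in each of 4 deposited tables, which together hold 12454 genes. Superoxide dismutases turn superoxide into hydrogen peroxide, which peroxidases and peroxiredoxins then reduce, the first with glutathione as the electron donor. Glutathione S-transferases join glutathione to electrophiles such as lipid aldehydes. Nfe2l2 encodes NRF2, a transcription factor that binds antioxidant response elements, and astrocytes are known in brain and cord as a major store of glutathione.

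The RiboTag method adds a haemagglutinin tag to a ribosomal protein in cells that express Cre, so that tagged ribosomes and their RNA can be pulled down. In every mouse here the driver was GfapCre, active in cells that use, or once used, the Gfap promoter, with the Ribotag allele floxed on both chromosomes. The 25 libraries came from 7 groups. Smarca4cKO mice (GfapCre:Ribotagfl/fl:Smarca4fl/fl, strain C57BL6;129S2) were sampled at 14 days from a full crush of the thoracic cord (spinal cord injury, SCI, n = 4), 24 hours after an intraperitoneal injection of 5 mg per kg lipopolysaccharide (LPS, n = 3), and uninjured (n = 3). Stat3cKO mice (GfapCre:Ribotagfl/fl:Stat3fl/fl, strain C57BL6) were studied 24 hours after the same LPS dose (n = 4) and uninjured (n = 3). Mice labelled wild type (WT; GfapCre:Ribotagfl/fll, strain C57BL6) were studied 24 hours after LPS (n = 4) and uninjured (n = 4). Ages are not given in the sources used here, and WT mice after SCI were not analysed here. Titles number each animal's library separately, and the p-values measure the spread between these libraries.

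Libraries held between 52433934 and 106513035 counts. Stat3, the target in Stat3cKO mice, read 92.8 to 322 CPM in Stat3cKO mice after LPS and 8.61 to 21.6 CPM in uninjured Stat3cKO mice, against 177 to 516 CPM in WT mice after LPS and 101 to 153 CPM in uninjured WT mice. The deposited count is for the whole gene and does not show which exons were read. Smarca4 read 11.9 to 21.3 CPM after SCI, 0.0166 to 50.0 CPM after LPS and 12.7 to 21.8 CPM in uninjured mice of the Smarca4cKO genotype, below all 15 libraries of the other genotypes (lowest 62.4 CPM). Some Smarca4cKO libraries stood apart: 441, 523 and 16 genes had 10 or fewer counts in LPS libraries 1, 2 and 3, with at least 1000 in both others of the group. In the SCI table the same was true of 269, 671 and 416 genes in the 3 uninjured Smarca4cKO libraries, and of 0 to 17 genes in each Stat3cKO, WT and SCI library. The same 3 uninjured Smarca4cKO libraries serve both the SCI and the LPS comparison.

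Promoters were read for the members because NRF2 and STAT factors are among the known regulators of such genes. RefSeq windows of 250 bases before the start (GRCm38.p6) were held for 9 of the 10 members, and Prdx6 had none. Distances are counted to this RefSeq start, which can differ from the start of the GENCODE gene used for positions and lengths. The core of the antioxidant response element, TGACNNNGC on either strand, was found in 4 of these 9 members, against 11.5% of 27025 genes. The short windows that follow show these matches in capitals with 10 bases on each side, in the direction of the gene.

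Prdx1: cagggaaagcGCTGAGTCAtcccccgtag

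Gstm5: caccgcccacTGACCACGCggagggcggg

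Sod1: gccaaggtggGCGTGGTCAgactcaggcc

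Nfe2l2: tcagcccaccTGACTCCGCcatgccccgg

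The Prdx1 window lies at chr4:116685456-116685484 and its match, on the opposite strand, ends 125 bases before the RefSeq start. In Gstm5 (chr3:107895802-107895830) the match ends 34 bases before the RefSeq start, and the GENCODE gene begins within the window shown, at 107895821. The Sod1 match, also on the opposite strand, ends 48 bases before the start (chr16:90220696-90220724). In Nfe2l2 itself (chr2:75704885-75704913, minus strand) the match ends 232 bases before the start. An AP-1 site, TGANTCA, was found in Prdx1 and Gstm5 only among the 9, against 7.82% of genes, and 1 of the pair in Prdx1 overlaps the antioxidant core shown. A STAT site, TTCNNNGAA, was found in 2 members, against 8.13% of genes, and both matches follow.

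Gpx8: cgtttgattcTTCTGGGAAgggtcctcct

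Sod2: tctccagggtTTCCCAGAAgcaggagtag

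The Gpx8 window (chr13:113046492-113046520, minus strand) and the Sod2 window (chr17:13007644-13007672) end their matches 114 and 177 bases before the RefSeq start. The GENCODE gene Sod2 begins at chr17:13006846, so the Sod2 match lies inside that gene. These matches are descriptions of letters, and binding was not measured. Gpx1, Gpx4 and Gstm1 held none of the 3 motifs in their windows.

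Levels were compared between genes as CPM (counts scaled to the library's depth) per kb of annotated exon, in 1 scale over all 25 libraries. The length takes every annotated exon base of a gene, 4804 for Prdx6 and 1473 for Gstm1, and the order depends on it. In CPM without the length, the mean of Prdx6 was above that of Gstm1 in uninjured WT mice (2629 against 1812). Only in Stat3cKO mice after LPS was the mean of Prdx6 below it (1419 against 1481). In uninjured WT mice Gstm1 came first with 1230 ± 376 CPM per kb (SD, n = 4), followed by Prdx6 with 547 ± 77.7 and Gstm5 with 384 ± 70.1. Next came Gpx1 (79.8 ± 17.7), Prdx1 (75.4 ± 14.7), Gpx4 (52.8 ± 12.05) and Sod1 (50.9 ± 9.55), neighbours whose spreads overlapped. Gpx8 (28.9 ± 8.23), Nfe2l2 (27.7 ± 8.60) and Sod2 (23.4 ± 2.78) closed the order, again with overlapping spreads. After SCI in Smarca4cKO mice the order differed at its head: Prdx6 stood at 702 ± 76.8 CPM per kb, Gstm1 at 317 ± 71.3 and Gpx1 at 301 ± 61.8 (SD, n = 4), and the last 2 could not be parted by their spreads.

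**Figure D1:**
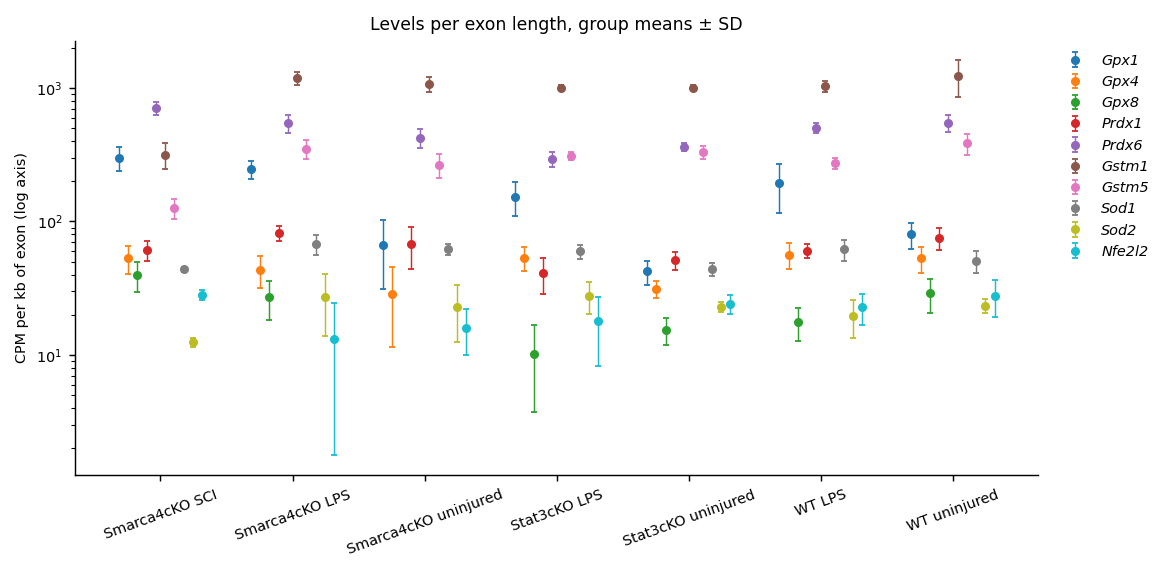
CPM per kb of exon on a log axis for the 10 genes in the 7 groups; points are group means and bars are ± 1 SD over 3 or 4 libraries (Gpx8 is at 0 in uninjured Smarca4cKO mice and has no point there). On this scale per exon length, Gstm1 leads in every group but Smarca4cKO after SCI, where Prdx6 leads with 702 CPM per kb.

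The study asked how far the response of astrocytes depends on the challenge and on Stat3 or Smarca4. Among the 4 comparisons with uninjured mice, most calls came after SCI in Smarca4cKO mice, where 3 of 10 rose (Gpx1, Gpx8, Prdx6) and 3 of 10 fell (Gstm1, Gstm5, Sod1) by edgeR's quasi-likelihood test at an adjusted p under 0.05. Over all 11109 genes tested, 14.5% were called in this comparison, 10.1% higher and 4.31% lower. Gpx8 read 0 in every uninjured Smarca4cKO library and passed the filter on low counts only through the SCI group, so its call rests on those zeros. After LPS, Gpx1 alone was called in Stat3cKO mice, where 10.6% of all genes were called. No member was called after LPS in Smarca4cKO mice (0.0249% of all genes) or in WT mice (2.54% of all genes). Values are given first by enzyme family.

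**Figure D2:**
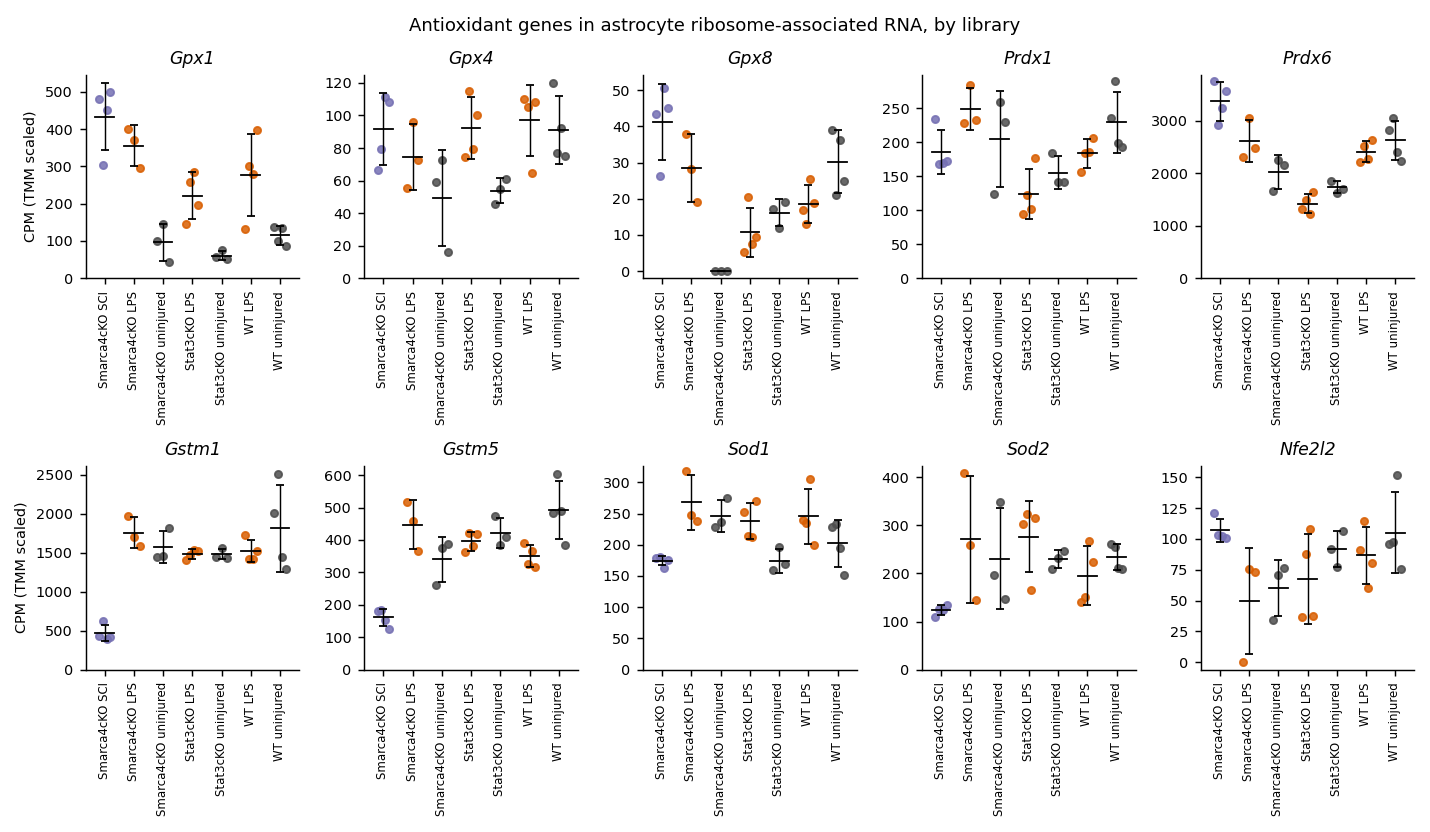
CPM (TMM scaled over all 25 libraries) of each gene in each library, with group means (horizontal lines) and ± 1 SD bars; orange is LPS, purple SCI and grey uninjured. The 4 Smarca4cKO SCI libraries lie between 398 and 623 CPM for Gstm1, and the 3 uninjured Smarca4cKO libraries read 0 for Gpx8.

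Gpx1, the most widely expressed glutathione peroxidase and a selenoprotein of cytosol and mitochondria (chr9:108338903-108340343, GENCODE, GRCm38), was higher after either challenge. After SCI the Smarca4cKO libraries read 479.8, 303, 452 and 499 CPM, and after LPS 401, 371 and 295 CPM, against 99.7, 145 and 43.4 CPM in uninjured Smarca4cKO mice. Neither challenge group overlapped the uninjured one. The log2 fold change was 2.09 ± 0.41 (SE) for SCI, with an adjusted p of 0.0103 by edgeR. For LPS it was 1.89 ± 0.43, with an edgeR adjusted p of 0.247; only 0.0249% of 8040 genes, 2 genes, were called in that comparison. DESeq2 gave 9.44e-05 for the same difference and 1 edgeR fit of all 7 groups 0.00333, and the authors' deposited table gives a false discovery rate of 0.00847. SCI and LPS themselves differed for Gpx1 by 0.29 ± 0.34 on the log2 scale (edgeR adjusted p = 0.934).

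In Stat3cKO mice Gpx1 read 146, 258, 285 and 196 CPM after LPS, against 56.2, 74.9 and 51.4 CPM in uninjured Stat3cKO mice. Every LPS library was above every uninjured one, and the log2 fold change was 1.88 ± 0.26 (edgeR adjusted p = 0.00138). In WT mice it read 131, 301, 279 and 399 CPM after LPS, against 137, 101, 136 and 86.4 CPM in uninjured mice. Here 1 LPS library lay among the uninjured ones, and the log2 fold change of 1.24 ± 0.30 had an edgeR adjusted p of 0.0522, just outside the threshold. Without that library, WT LPS 1, the value was 1.48 and the adjusted p 0.0157. DESeq2 gave 0.00211 for WT, and the authors' deposited table gives a false discovery rate of 0.00261. The response to LPS was 0.61 ± 0.42 larger in Stat3cKO than in WT mice and 0.59 ± 0.54 larger in Smarca4cKO than in WT mice on the log2 scale, with edgeR adjusted p of 0.740 and 1, so no difference between genotypes was shown.

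Gpx4, the selenoenzyme that reduces lipid hydroperoxides in membranes and restrains ferroptosis, was not called in any comparison with uninjured mice. Its lowest adjusted p was in Stat3cKO mice, with 74.4, 115, 79.6 and 100.5 CPM after LPS, against 45.6, 55.0 and 60.9 CPM in uninjured mice. The groups did not overlap, and the log2 fold change of 0.79 ± 0.23 had an edgeR adjusted p of 0.0521. The call appeared when Stat3cKO LPS 1 or 3 was left out (0.0482 and 0.0443) and with DESeq2 (0.0237). The authors' deposited false discovery rate for this difference was 0.0333. In WT mice the same difference was 0.06 ± 0.25. Of 50-base stretches of Gpx4 transcripts, 34.7% also occur in the pseudogene Gpx4-ps2, so its counts are uncertain to the extent that reads were divided between them.

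Gpx8, a membrane-bound peroxidase of the endoplasmic reticulum (chr13:113042753-113046410, minus strand), read 0 counts in all 3 uninjured Smarca4cKO libraries. It had 4859, 1978, 4462 and 3361 counts after SCI and 2280, 2073 and 2176 counts after LPS in Smarca4cKO mice. In uninjured WT mice it had 2057, 1736, 1814 and 1939 counts. With 3 counts over the group as the limit for 0, Gpx8 was at least 3441-fold higher after SCI and at least 2166-fold higher after LPS than in uninjured Smarca4cKO mice. Uninjured Smarca4cKO mice were at least 2357-fold lower than uninjured WT mice. The edgeR adjusted p was 0.0034 for SCI, 0.245 for LPS (4.01e-09 by DESeq2) and 0.000856 for uninjured Smarca4cKO against uninjured WT mice. The authors' deposited false discovery rates were 1.19e-10 for SCI and 0.00211 for LPS, against the same uninjured libraries at 0.

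In the table for SCI, 387 genes read 0 in all 3 uninjured Smarca4cKO libraries, 99 of them are also in the WT table, and Gpx8 is the 1 gene of these with 1000 or more counts in every uninjured WT library. The 7 SCI and LPS libraries of the same genotype and strain, all from challenged mice, read 1978 to 4859 counts of Gpx8. Whether the zeros belong to uninjured mice of this genotype and strain or to library making cannot be told apart. All 3 libraries are of 1 group. Without uninjured Smarca4cKO mice, the SCI and LPS groups read 26.3 to 50.6 and 19.0 to 37.9 CPM, which overlaps the 21.0 to 38.9 CPM of uninjured WT mice. In the other genotypes Gpx8 was lower after LPS without a call. WT mice read 17.0, 13.1, 25.5 and 18.7 CPM after LPS, against 38.9, 21.0, 36.2 and 25.0 CPM in uninjured mice, and these groups overlapped (log2 fold change -0.74 ± 0.41, edgeR adjusted p = 0.490). Stat3cKO mice read 5.33, 20.5, 7.56 and 9.36 CPM after LPS, against 17.2, 11.96 and 19.2 CPM in uninjured mice (-0.58 ± 0.56, edgeR adjusted p = 0.604).

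Prdx6, which reduces phospholipid hydroperoxides and also acts as a phospholipase, rose after SCI. It read 3759, 2922, 3240.2 and 3569 CPM after SCI in Smarca4cKO mice, against 1658, 2263 and 2163 CPM in uninjured mice, with no overlap. The log2 fold change was 0.65 ± 0.17 with an edgeR adjusted p of 0.0353. The authors' deposited false discovery rate was 0.00266. The call was lost in 5 of 7 fits that left out 1 library: without SCI 1, SCI 3, SCI 4, uninjured 1 or uninjured 3 the adjusted p was 0.0563, 0.0639, 0.0782, 0.0681 and 0.0626 in that order.

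Prdx6 was not called after LPS. Smarca4cKO mice read 2306, 3064 and 2482 CPM after LPS, all above the uninjured libraries (log2 fold change 0.36 ± 0.18, edgeR adjusted p = 0.998). Stat3cKO mice read 1323, 1484, 1229 and 1642 CPM after LPS, against 1859, 1633 and 1708 CPM in uninjured mice (-0.27 ± 0.13, edgeR adjusted p = 0.227). WT mice read 2215, 2522, 2279 and 2634 CPM after LPS, against 2827, 3048, 2404 and 2238 CPM in uninjured mice (-0.16 ± 0.15, edgeR adjusted p = 0.748). The groups of both these genotypes overlapped.

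Prdx1, a cytosolic peroxiredoxin that uses thioredoxin, was not called anywhere. Its group means ran between 124 ± 36.8 CPM in Stat3cKO mice after LPS (SD, n = 4) and 248 ± 30.9 CPM in Smarca4cKO mice after LPS (SD, n = 3). The log2 fold changes were -0.22 ± 0.27 for SCI and 0.27 ± 0.31, -0.31 ± 0.24 and -0.35 ± 0.20 for LPS in Smarca4cKO, Stat3cKO and WT mice, and all 4 pairs of groups overlapped. Without uninjured Smarca4cKO 2 the SCI value was 0.02.

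The transferase genes Gstm1 and Gstm5, neighbours on chromosome 3 that encode mu-class enzymes, fell after SCI and were not called after LPS. Gstm1 (chr3:108012255-108017973, minus strand) read 424, 623, 398 and 422 CPM after SCI in Smarca4cKO mice and 1974, 1701 and 1588 CPM after LPS, against 1445, 1455 and 1812 CPM in uninjured Smarca4cKO mice. All SCI libraries lay far below both other groups. The log2 fold change for SCI was -1.83 ± 0.18 (edgeR adjusted p = 0.00203), a ratio of 0.282, and that of SCI over LPS was -1.91 ± 0.18 (edgeR adjusted p = 0.00153). For LPS it was 0.15 ± 0.17 (edgeR adjusted p = 0.998).

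In the other genotypes Gstm1 lay between 1292 and 2506 CPM. Stat3cKO mice read 1401, 1467, 1528 and 1526 CPM after LPS, against 1449, 1556 and 1436 CPM in uninjured mice, and WT mice 1719.6, 1422, 1421 and 1514 CPM after LPS, against 2002, 2506, 1446 and 1292 CPM in uninjured mice. The log2 fold changes were 0.01 ± 0.10 in Stat3cKO and -0.29 ± 0.21 in WT mice (edgeR adjusted p = 0.960 and 0.644). Library totals as the scale, or leaving out uninjured Stat3cKO 1, turned the Stat3cKO value to -0.0471 and -0.0048.

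Gstm5 (chr3:107895821-107898686), whose promoter holds an antioxidant core, read 182, 183, 153 and 126 CPM after SCI and 516, 459 and 367 CPM after LPS in Smarca4cKO mice, against 261, 374 and 387 CPM in uninjured Smarca4cKO mice. The SCI libraries were again below both other groups. The log2 fold change was -1.16 ± 0.20 for SCI (edgeR adjusted p = 0.00655) and -1.47 ± 0.21 for SCI over LPS (edgeR adjusted p = 0.0042). These 2 calls and those of Gstm1 held in every fit that left out 1 library and under each alternative run. Of all genes, 3.78% were called between SCI and LPS, and Gstm1 and Gstm5 were the 2 members called there.

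After LPS, Gstm5 was not called in any genotype. WT mice read 389, 326, 366 and 317 CPM after LPS, against 485, 605, 490.0 and 386 CPM in uninjured mice (log2 fold change -0.53 ± 0.18, edgeR adjusted p = 0.176). On this scale over all 25 libraries just 1 uninjured WT library, at 386 CPM, came level with the LPS group. On the scale of the test every LPS library was below every uninjured one. In Smarca4cKO mice the value was 0.39 ± 0.24, and the test of the difference between Smarca4cKO and WT responses gave 0.86 ± 0.28 with an edgeR adjusted p of 0.468. Stat3cKO mice read 363, 421, 381 and 419 CPM after LPS, against 474, 384 and 409 CPM in uninjured mice (-0.08 ± 0.14).

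Part of the transferase reads could belong to related sequence. Of 50-base stretches of Gstm1 transcripts 18.9% occur in other genes, most of them in the pseudogene Gstm2-ps1. Gstm5 shares 178 exonic bases with the antisense gene 4933431E20Rik. How the counting used strand is not given in the sources used here, so reads from that pair cannot be told apart.

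Sod1, the copper and zinc dismutase of the cytosol, read 179, 180.0, 163 and 176 CPM after SCI in Smarca4cKO mice, against 228, 236 and 275 CPM in uninjured Smarca4cKO mice, with no overlap. It fell by 0.57 ± 0.13 on the log2 scale (SE; edgeR adjusted p = 0.0194). The adjusted p was 0.0576, 0.0863 and 0.0728 without SCI 2, SCI 3 and SCI 4, 0.144 with genes kept only at 10 or more counts in every library, and 0.0775 in 1 fit of all 7 groups. The authors' deposited table gives a false discovery rate of 0.0714. After LPS Sod1 was not called in any genotype. Stat3cKO mice read 253, 215, 213 and 271 CPM after LPS, against 159, 196 and 169 CPM in uninjured mice, and Smarca4cKO mice read 318, 247 and 238 CPM after LPS. The Stat3cKO groups did not overlap (log2 fold change 0.46 ± 0.17, edgeR adjusted p = 0.115), whereas the WT groups did (0.25 ± 0.21, edgeR adjusted p = 0.710), with 240.5, 234, 306 and 200.3 CPM after LPS, against 229, 234, 194 and 152 CPM in uninjured mice.

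Sod2, the manganese dismutase of mitochondria and a known target of inflammatory signalling, read 110.1, 127, 125 and 135 CPM after SCI in Smarca4cKO mice, against 198, 348 and 146 CPM in uninjured mice. All SCI libraries were below all uninjured ones, yet the log2 fold change of -0.98 ± 0.30 had an edgeR adjusted p of 0.0677. It was 0.0149 without uninjured Smarca4cKO 3, and 0.00741 by DESeq2. The authors' deposited false discovery rate was 0.0125. Against LPS in the same genotype (409, 260.2 and 145 CPM), SCI was lower by a log2 value of -1.13 ± 0.36 (edgeR adjusted p = 0.139). For LPS over uninjured mice the log2 fold changes were 0.23 ± 0.45 in Smarca4cKO, 0.28 ± 0.23 in Stat3cKO and -0.29 ± 0.23 in WT mice, none of them called. In Smarca4cKO mice the LPS value was -0.20 without LPS 1 and -0.02 without uninjured 3. Sod2 shares 21.0% of its 50-base stretches with other genes.

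Between SCI and LPS, Sod1 differed by -0.62 ± 0.17 on the log2 scale (edgeR adjusted p = 0.0776). Leaving out Smarca4cKO LPS 3 brought both dismutases past the threshold in that comparison, with adjusted p of 0.0424 for Sod1 and 0.0236 for Sod2. In Sod1 the LPS over uninjured value in Smarca4cKO mice was 0.12 ± 0.23, and -0.03 without LPS 1.

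Nfe2l2, which encodes NRF2, is regulated largely through protein stability, which RNA does not report. It read 121, 103, 103 and 101 CPM after SCI in Smarca4cKO mice, against 34.4, 70.7 and 76.2 CPM in uninjured mice. The groups did not overlap, but the log2 fold change of 0.74 ± 0.31 had an edgeR adjusted p of 0.198. After LPS in the same genotype it read 0.083, 75.2 and 73.5 CPM, the first from 5 counts, against 5515 and 8405 counts in the other 2 libraries. The LPS log2 fold change was -0.30 ± 1.52 with that library and 0.29 without it. In Stat3cKO mice the value was -0.43 ± 0.38 and in WT mice -0.32 ± 0.28 (edgeR adjusted p = 0.555 and 0.726), with overlapping groups in both.

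**Figure D3:**
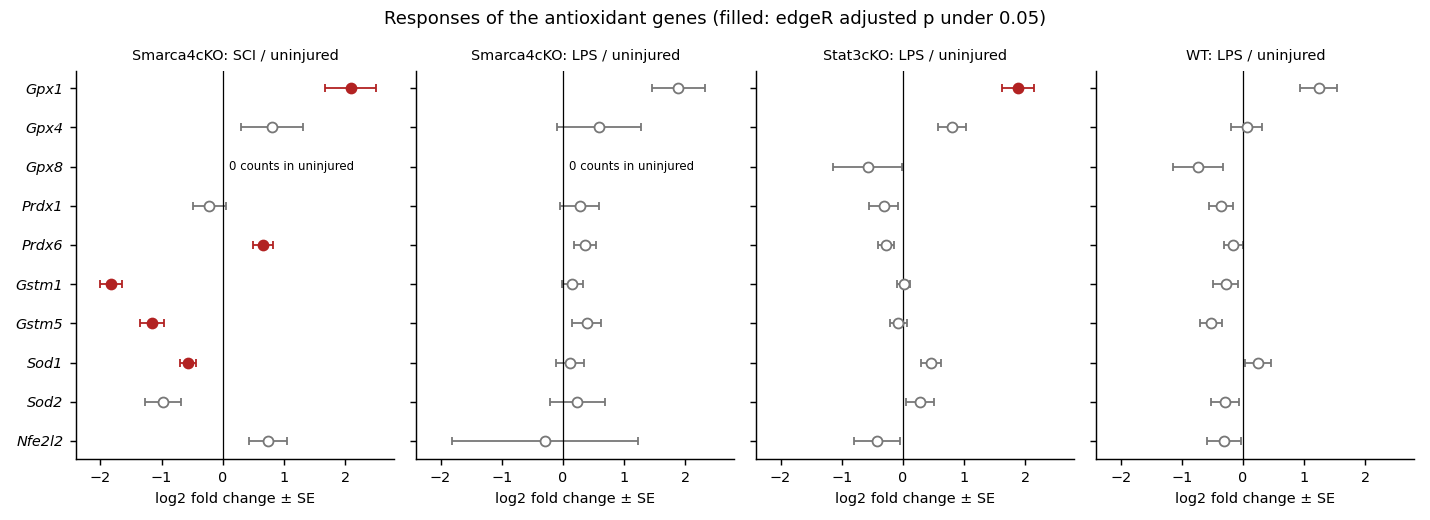
Log2 fold change ± SE of each gene over uninjured mice of the same genotype, for Smarca4cKO after SCI, Smarca4cKO after LPS, Stat3cKO after LPS and WT after LPS. Filled points have an edgeR adjusted p under 0.05 (Gpx1 in Stat3cKO after LPS; Gpx1, Prdx6, Gstm1, Gstm5 and Sod1 after SCI), and Gpx8 is not drawn in Smarca4cKO mice, where the uninjured libraries read 0.

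Counts over the 10 genes were read against all genes of each comparison. After SCI in Smarca4cKO mice, 6 of 10 were called, against 14.5% of all genes. Gpx8 is 1 of the 6 and, with 0 counts in the uninjured libraries, passed the filter on low counts only through the SCI group. With 10 or more counts required in every library it drops out and 4 of the other 9 were called (Gpx1, Prdx6, Gstm1 and Gstm5), against 11.5% of all genes. Gpx8 included, 4 members were higher and 4 lower with no overlap between groups, against 18.3% and 10.2% of all genes. After LPS in Stat3cKO mice 1 of 10 was called, against 10.6%. In WT mice 0 of 10 were called, against 2.54%, by edgeR; 2 had an unadjusted p under 0.05, against 13.8%, and DESeq2 called 1, against 5.83%. In Smarca4cKO mice after LPS edgeR called 0 of 10, with 2 at an unadjusted p under 0.05, against 5.82%, and DESeq2 called 2, Gpx1 and Gpx8, against 3.68%. The median log2 fold changes of the 10 were 0.22 for SCI and 0.32, -0.03 and -0.29 for LPS in Smarca4cKO, Stat3cKO and WT mice, beside 0.07, -0.002, -0.01 and -0.005 over all genes.

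The LPS response of the members did not separate Stat3cKO from WT mice in the test of the difference itself: 0 of 10 were called by edgeR, against 0.377% of 10341 genes, 0 had an unadjusted p under 0.05, against 9.28%, and DESeq2 called 0, against 1.61%. Between Smarca4cKO and WT mice 1 of 10 was called, against 0.316% of 7919 genes. It was Gpx8, whose value rests on the zeros of the uninjured Smarca4cKO libraries.

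Without any challenge, the log2 value of Stat3cKO over WT mice was below 0 for each of the 10 genes, from -0.92 to -0.03. Its median was -0.43, against -0.01 over all genes. The 10 genes were read in the same libraries and are not independent cases. None was called by edgeR, against 0.193% of 10341 genes. 4 had an unadjusted p under 0.05 (5.89% of all genes), and DESeq2 called 1 (0.581% of all genes), Prdx6, at an adjusted p of 0.00639. In 5 of them the groups did not overlap, against 4.44% of all genes lower in this way: Gpx1 at -0.92 ± 0.31, Gpx8 at -0.91 ± 0.50, Gpx4 at -0.76 ± 0.25, Prdx6 at -0.60 ± 0.15 and Prdx1 at -0.56 ± 0.23. Prdx6, for one, read 1859, 1633 and 1708 CPM in uninjured Stat3cKO mice, against 2827, 3048, 2404 and 2238 CPM in uninjured WT mice. The 2 genotypes come from separate tables, and whether their libraries were made together is not given in the sources used here.

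In uninjured Smarca4cKO against uninjured WT mice, 1 of 10 was called lower, against 0.354% of 7919 genes. It was Gpx8. On the scale of that fit, the groups did not overlap for Gpx8, Gpx4 (-0.86 ± 0.44) and Gstm5 (-0.51 ± 0.20), all lower in Smarca4cKO mice, against 6.96% of all genes lower in this way. On the scale over all 25 libraries Gstm5 did overlap, by 387 CPM in 1 uninjured Smarca4cKO library, against 386 CPM in 1 uninjured WT library. Smarca4cKO and WT mice differ in strain as labelled, so genotype and strain cannot be told apart in any comparison between them.

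Other genes of the same pathways were read from lists of 116 distinct genes. After SCI in Smarca4cKO mice 12 of 94 tested rose and 7 fell, beside the 10.1% and 4.31% of all genes. Among genes of glutathione supply, Cbs, which feeds cysteine synthesis, fell to a mean of 49.3 CPM after SCI, against 166 CPM in uninjured mice (log2 fold change -1.75 ± 0.25, edgeR adjusted p = 0.00605). Gsta4, a transferase for the lipid aldehyde hydroxynonenal, fell by 1.47 ± 0.21, with 94.7 CPM after SCI, against 263 CPM in uninjured mice (edgeR adjusted p = 0.00598). Txn2, the mitochondrial thioredoxin, fell by 0.90 ± 0.17 (0.00911) and Maoa, a monoamine oxidase that releases hydrogen peroxide, by 0.97 ± 0.20 (0.0121). Ftl1, the ferritin light chain, rose by 1.72 ± 0.37 (0.0151), and Taldo1, transaldolase of the pentose phosphate pathway, by 1.18 ± 0.19 (0.00652).

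Several rises after SCI came from genes almost without counts in uninjured Smarca4cKO mice. Cybb, the catalytic subunit of the phagocyte NADPH oxidase, had 3766 counts over the 4 SCI libraries, against 0 over the 3 uninjured ones, at least 841-fold higher. Xdh, xanthine dehydrogenase, had 2250 against 0, at least 502-fold higher. Sesn2 had 6515 counts after SCI, against 2 in uninjured mice, a ratio of 2182 (95% counting interval 604 to 18019). Maff, a small MAF partner of NRF2, had 5176 counts after SCI, against 2 in uninjured mice, a ratio of 1733 (479.6 to 14316). Txnrd2, the mitochondrial thioredoxin reductase, had 3716 counts after SCI, against 3 in uninjured mice, a ratio of 829.6 (284 to 4025). Of the 16 genes named by rule for SCI, 11 were called in every fit that left out 1 library, and these 11 are the ones given here. For Cybb, Xdh, Sesn2, Maff and Txnrd2, leaving out an uninjured library could hardly change a baseline of 0 to 3 counts. With 10 or more counts required in every library these genes were not tested, and 5 pathway genes rose in place of 12.

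Markers of other cells moved with SCI. Of 10 oligodendrocyte markers 6 rose, with a sum of 28872 to 38986 CPM after SCI, against 6724 to 13469 CPM in uninjured mice. Of 12 microglia and macrophage markers tested 3 rose (465 to 1768 CPM after SCI, against 86.8 to 558 CPM), with Aif1 at 0 in the uninjured libraries. Among astrocyte markers 1 of 12 rose and 7 fell (36605 to 49564 CPM after SCI, against 55929 to 56804 CPM). Markers also rose for Schwann cells (3 of 6), oligodendrocyte progenitors (2 of 6), fibroblasts (2 of 7), pericytes (2 of 4), ependyma (2 of 4) and endothelium (1 of 2). Of all genes, 10.1% were called higher. Endothelial sums overlapped (3.35 to 20.5 CPM after SCI, against 0 to 13.8 CPM). Pecam1, the most abundant endothelial marker, was lower without a call (log2 fold change -1.44 ± 1.82). For the Schwann cell, progenitor, fibroblast, pericyte and ependymal lists every SCI sum was above every uninjured one. Lum, a fibroblast marker, and Mia, an ependymal one, read 0 in the uninjured libraries. Of 9 neuronal markers 1 fell. No neutrophil or erythrocyte marker was listed. The part of these cells in the changes of Gpx1, Prdx6, Gstm1, Gstm5, Sod1 and the pathway genes was not tested, and fewer cells of a type and less RNA per cell cannot be told apart in bulk samples.

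After LPS in Stat3cKO mice 12 of 94 pathway genes rose and 4 fell, against 7.12% and 3.44% of all genes. Txnip, which binds and inhibits thioredoxin, averaged 304 CPM after LPS, against 25.3 CPM in uninjured Stat3cKO mice (log2 fold change 3.58 ± 0.29, edgeR adjusted p = 4.48e-05). Msrb1, a selenoprotein methionine sulfoxide reductase, averaged 244 CPM, against 48.4 CPM (2.33 ± 0.19, edgeR adjusted p = 4.55e-05). Of 24 partners, regulators and targets of NRF2, 8 rose and 0 fell. They include Srxn1, sulfiredoxin, which repairs overoxidised peroxiredoxins (111 CPM after LPS, against 26.0 CPM; 2.09 ± 0.33, edgeR adjusted p = 0.00333), and G6pdx, the entry enzyme of NADPH supply (205 CPM after LPS, against 101 CPM; 1.02 ± 0.18, 0.00536). Osgin1 had 923 counts after LPS, against 0 in uninjured mice, at least 255-fold higher. These 5 genes were called in every fit that left out 1 library. For Osgin1, leaving out an uninjured library could not change a baseline of 0 counts. With 10 or more counts required in every library Osgin1 was not tested. Without uninjured Stat3cKO 1, 9 pathway genes were called in place of 16. The other 6 genes named by rule each lost the call in at least 1 such fit. Of these Gpx3, the secreted glutathione peroxidase, averaged 168 CPM after LPS, against 25.4 CPM in uninjured mice (2.73 ± 0.57, edgeR adjusted p = 0.0134), and Maff rose as well (6.33 ± 1.38, 0.016). The 4 falls were Cat, catalase (-0.76 ± 0.15, 0.0107), Maoa (-0.83 ± 0.23, 0.0431), and Tkt (-0.85 ± 0.17, 0.012) and Taldo1 (-0.64 ± 0.17, 0.0403), transketolase and transaldolase of the pentose phosphate pathway; of 9 genes of NADPH supply, 1 thus rose and 2 fell. Markers of other cells moved in the same comparison. Of 10 neuronal markers 4 rose (sums of 585 to 813 CPM after LPS, against 316 to 375 CPM in uninjured mice), of 9 microglial markers 2 rose (104 to 225 CPM after LPS, against 54.2 to 98.0 CPM), and of 10 oligodendrocyte markers 2 rose and 1 fell (8684 to 11462 CPM after LPS, against 5199 to 6806 CPM). Among oligodendrocyte progenitor markers 2 of 6 fell, among fibroblast markers 1 of 6 fell, and of 12 astrocyte markers 3 rose and 2 fell. Their part in the results was not tested.

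After LPS in WT mice 5 of 90 pathway genes rose and 2 fell, against 1.54% and 0.994% of all genes. Only Gpx3 and Msrb1 of these 7 were called in every fit that left out 1 library, and those fits called 2 to 5 pathway genes. Gpx3 averaged 788 CPM after LPS, against 58.9 CPM in uninjured WT mice (log2 fold change 3.74 ± 0.59, edgeR adjusted p = 0.0118). Msrb1 averaged 175 CPM, against 49.2 CPM (1.83 ± 0.28, edgeR adjusted p = 0.0106). Of the markers, 3 of 12 for astrocytes fell (sums of 54237 to 70834 CPM after LPS, against 60825 to 76102 CPM in uninjured WT mice), as did 1 of 6 for fibroblasts (179 to 218 CPM after LPS, against 222 to 371 CPM); their part was not tested. In Smarca4cKO mice after LPS 0 of 72 pathway genes were called by edgeR, against 0.0249% of all genes. By unadjusted p under 0.05 there were 9, against 5.82%, and DESeq2 called 6, against 3.68%. Gpx3 averaged 742 CPM after LPS, against 60.2 CPM in uninjured mice (3.62 ± 0.99, edgeR adjusted p = 0.304).

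Likeness of pattern was measured over the 7 group means of log2 CPM, each centred on its own mean, as the root mean square difference. Among members, Gstm1 and Gstm5 were nearest to each other (0.21), with 5 of 7590 other genes nearer to Gstm1 than Gstm5 was. For Gstm5, 24 genes were nearer than Gstm1. Sod2 also had Gstm5 as its nearest member, at almost the same distance (0.22). The gene nearest to Gstm1 was Acot11 (0.16) and that nearest to Gstm5 was Hsd17b11 (0.12). Prdx1 and Prdx6 were each other's nearest members (0.26), with 138 genes nearer to Prdx1 and 58 genes nearer to Prdx6. For Gpx1 the nearest gene was Galnt6 (0.35) and the nearest member Gpx4 (0.77), with 521 genes nearer. The nearest gene was Krcc1 for Gpx8 (0.50), Pfdn5 for Gpx4 (0.09), Cdc16 for Prdx1 (0.08), Srsf1 for Prdx6 (0.09), Ep300 for Sod1 (0.09), Gm2a for Sod2 (0.13) and Bnip3l for Nfe2l2 (0.10). The Gpx8 pattern (range of group means 6.35) includes the 0 counts of uninjured Smarca4cKO mice. That of Nfe2l2 (range 2.85) includes the 5 counts of Smarca4cKO LPS 1. Such low counts weigh on the nearest genes of both.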

How the data were processed

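The members and pathway lists were chosen with earlier results of these data known. The authors deposited raw counts per gene, 1 table per comparison, with their log2 fold changes and false discovery rates (q-values); per the submitters' processing notes reads were aligned with STAR 2.4.0j to mm10, counted with HTSeq 0.6.0 and tested with edgeR 3.28.0. Another 56 columns of per-sample values were not used here. Counts were tested with edgeR 4.0.16 (R 4.3.3; TMM, filterByExpr, quasi-likelihood, Benjamini-Hochberg over all genes), per table or over tables joined by symbol; the calls of simulated data were checked. DESeq2 1.42.0, other scalings, filters and left-out libraries were alternatives. The threshold was an adjusted p of 0.05. Levels are CPM, with TMM over 7834 genes in all 4 tables, for members; pathway and marker CPM use each table's own scale. Named pathway genes were the 2 largest rises and falls past the threshold per list with a mean of at least 1 CPM. Intervals cover counting error only. Each group has 3 or 4 libraries, which limits the precision.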

Additional observations from a re-analysis of the deposited data

Results flagged for a closer look

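In 40 sets of 4 libraries (10 genes in 4 groups) 5 had a library far from its 3 mates; chance alone flags about 1 in 20. They were the lowest WT LPS library for Gpx4 (64.7 CPM), the highest Smarca4cKO SCI library for Prdx1 (234 CPM), for Gstm1 (623 CPM) and for Nfe2l2 (121 CPM), and the lowest Stat3cKO LPS library for Sod2 (166 CPM). The LPS response of Gpx8 differed between Smarca4cKO and WT mice by a fitted 14.8 on the log2 scale (edgeR adjusted p = 0.00174); that value depends on the prior count given to the 3 uninjured Smarca4cKO libraries at 0 and is no bound.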

How the results depend on the processing

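No paired analysis was possible because sample titles are animal numbers and pair nothing across groups. The numbers of members called moved as follows. In WT mice after LPS 1 member, Gpx1, was called with DESeq2, with library totals as the scale, with 10 or more counts required in every library and in 1 fit of all 7 groups, in place of 0. In Stat3cKO mice DESeq2 and the stricter filter called 2 (Gpx1 and Gpx4) in place of 1. DESeq2 and the fit of 7 groups called 2 in Smarca4cKO mice after LPS in place of 0, and 4 between SCI and LPS in place of 2. The stricter filter removed Gpx8, which left 0 called in both comparisons of Smarca4cKO with WT mice in place of 1, and for SCI, with Sod1 also lost, 4 in place of 6. DESeq2 called 1 in uninjured Stat3cKO against WT mice in place of 0. Leaving out 1 library gave 4 to 6 members for SCI, 2 to 4 for SCI over LPS, 0 to 1 for LPS in WT, 1 to 2 in Stat3cKO and 0 to 0 in Smarca4cKO mice, 1 to 1 in both Smarca4cKO against WT comparisons and 0 to 0 in both Stat3cKO against WT comparisons. Pathway genes called were 11 with DESeq2 in WT mice in place of 7, 10 with 7 groups fitted in Stat3cKO mice in place of 16, 6 with DESeq2 or 7 groups fitted in Smarca4cKO mice after LPS in place of 0, and 12 with the stricter filter for SCI in place of 19; without 1 library they were 2 to 5, 9 to 16, 0 to 1 and 14 to 21 in that order. Of 94 single-gene values 87 kept their direction, and 27 of 45 calls held, in each alternative that tested the gene. Genes that the stricter filter removed, Gpx8 among them, were not tested there and are not counted as lost.

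Signs turned for 7 values, none of them called. Without 1 library, Gpx4 in WT mice ranged over -0.0238 to 0.22, turning without uninjured 2 and 4. In Stat3cKO mice Gstm1 was -0.0471 with library totals and -0.0048 to 0.0793 without 1 library, and Gstm5 -0.12 to 0.0087, both turning without uninjured 1. In Smarca4cKO mice after LPS, Sod1 was -0.0166 with library totals and -0.0316 to 0.20 without 1 library, Sod2 -0.20 to 0.64 and Nfe2l2 -0.72 to 0.29, each turning without LPS 1, and Sod2 also without uninjured 3. After SCI Prdx1 was -0.49 to 0.0221, turning without uninjured 2. Library totals as the scale moved the median of all genes by over 0.1 in 5 comparisons, to -0.12 for LPS in Smarca4cKO mice, 0.10 for SCI over LPS, -0.12 and -0.16 for the Stat3cKO and Smarca4cKO responses minus that of WT, and 0.24 for uninjured Smarca4cKO over WT mice. The cause of these changes was not tested. The small groups and the uneven zeros of Smarca4cKO libraries limit what the depth can show.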
